A study of Homo sapiens with 12 samples.

Results

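The 34 genes described here are the receptors, ligands, modifying enzymes, nuclear partners and target genes of Notch signalling, together with the proneural transcription factors that Notch restrains. They were taken by symbol from a table of 59653 gene symbols, and all 34 were found there. The table holds RNA-seq counts of neurons that were grown from human iPSCs (induced pluripotent stem cells) of IMR-90 origin, a fetal lung fibroblast line. In 6 libraries the cells had received a negative control siRNA (siNC) and in 6 an siRNA against ZCCHC17 (siZCC), a zinc knuckle protein that the study's title connects with neuronal splicing. All libraries come from this single line, and the sample titles also carry the letters NPC, whose meaning the labels do not give. The labels do not say whether replicates were separate cultures, so p-values measure the spread between these libraries, which may be technical.

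Notch is a receptor that is cut when it binds a Delta or Jagged ligand on a neighbouring cell. Cleavage by an ADAM protease and then by gamma-secretase frees the intracellular part, which enters the nucleus and switches the DNA-binding protein RBPJ from repression to activation with the help of Mastermind proteins. The classical targets are the HES and HEY repressors, which in the developing brain hold back proneural factors and so keep neural progenitors from becoming neurons. Proneural factors in turn raise Delta ligands, so that a cell entering neurogenesis signals to its neighbours to remain progenitors.

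Depth was high throughout, with totals between 90755953 and 120023356 counts in the siNC libraries and between 76115083 and 105389055 in the siZCC libraries. The targeted transcript, ZCCHC17, lay between 54.0 and 61.0 CPM (counts scaled to the library size) in siNC and between 9.37 and 10.6 CPM in siZCC. Another feature divided the libraries. In 6 of them, siNC replicates 2, 3 and 6 and siZCC replicates 1, 4 and 5, IL1B stood at 5.23 to 15.97 CPM, and in the other 6 at no more than 0.1 CPM. The labels do not explain this division, which has 3 libraries of each group on either side.

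RBPJ is known to bind the letters GTGGGAA, and 4 of the 5 promoters of HES and HEY genes that hold them are shown, those of the 3 targets that were higher in siZCC and of HES1, which did not pass the test. The promoter not shown is that of HEYL, which did not pass either. HEY1 had no promoter entry and was not searched. Sequences are the 250 bases before the RefSeq start (GRCh38.p14), 5′ to 3′ in the direction of the gene, with GTGGGAA, or TTCCCAC where it lies on the other strand, in capitals. HES4 is on the minus strand at chr1:1000098-1000347, HES5 on the minus strand at chr1:2530264-2530513, HEY2 on the plus strand at chr6:125749382-125749631, and HES1 on the plus strand at chr3:194135898-194136147.
HES4: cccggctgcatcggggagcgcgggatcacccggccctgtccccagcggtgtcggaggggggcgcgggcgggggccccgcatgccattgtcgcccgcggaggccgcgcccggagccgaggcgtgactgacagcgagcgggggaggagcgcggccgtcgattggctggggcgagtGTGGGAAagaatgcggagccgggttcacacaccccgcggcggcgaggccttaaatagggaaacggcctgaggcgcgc
HES5: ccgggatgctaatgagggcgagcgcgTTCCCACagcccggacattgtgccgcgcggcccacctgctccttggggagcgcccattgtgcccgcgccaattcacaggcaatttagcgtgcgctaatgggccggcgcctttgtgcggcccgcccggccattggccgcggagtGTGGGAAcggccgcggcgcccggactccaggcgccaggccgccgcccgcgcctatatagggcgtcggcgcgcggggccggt
HEY2: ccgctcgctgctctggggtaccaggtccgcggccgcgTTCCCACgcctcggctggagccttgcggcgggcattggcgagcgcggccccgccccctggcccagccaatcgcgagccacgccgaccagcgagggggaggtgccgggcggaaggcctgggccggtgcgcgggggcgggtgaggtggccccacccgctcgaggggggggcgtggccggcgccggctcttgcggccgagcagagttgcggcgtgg
HES1: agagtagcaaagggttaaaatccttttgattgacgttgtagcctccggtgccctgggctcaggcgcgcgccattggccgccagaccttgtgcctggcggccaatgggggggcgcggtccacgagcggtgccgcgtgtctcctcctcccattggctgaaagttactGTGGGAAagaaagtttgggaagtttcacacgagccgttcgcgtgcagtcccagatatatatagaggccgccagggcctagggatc

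In HES4 the match begins 77 bases before the start, in HES1 85 bases and in HES5 81 bases before it. HES5 has another match on the other strand beginning 224 bases before the start, and HEY2 has its only match on that strand, 213 bases before the start. RefSeq promoter entries were matched for 28 of the 34 genes, 35 entries in all, since some genes have several starts. No entry was matched for HEY1, DLL1, DLL3, DTX1, INSM1 and MFNG, which were therefore not searched. The word was found in 6 of those 28 genes (HES1, HES4, HES5, HEY2, HEYL and RBPJ) and in 17.1% of the 35 entries, against 5.43% of the 35116 entries of the whole table. Its shorter core TGGGAA, searched on both strands and contained in the longer word, was found in 20% of the member entries and 20.8% of all entries. Apart from RBPJ, the genes with GTGGGAA are HES and HEY genes, classical targets that the list was chosen to hold. The higher share in the member entries is therefore no separate finding. A match is a description of the letters and not a measured binding site.

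The level of each gene per length, in mean CPM per kilobase of exon (GENCODE v29), sets the members in order. HES6, a HES relative known to favour neurogenesis by opposing HES1, stood highest in siNC at 125 ± 5.1 CPM per kilobase (SD, n = 6). HES4 followed at 66.1 ± 9.2, the ubiquitin ligase gene DTX4 at 51.8 ± 0.65, NOTCH1 at 44.4 ± 3.0, DLL1 at 44.3 ± 2.0 and NOTCH3 at 38.3 ± 2.1 CPM per kilobase (SD, n = 6 each). NOTCH1 and DLL1 did not differ beyond their spread. HES1 (13.2 ± 0.70), RBPJ (13.0 ± 0.71), JAG1 (13.1 ± 0.83), RFNG (13.4 ± 0.85) and NRARP (12.5 ± 0.40) lay at closely similar levels per kilobase (SD, n = 6 each). At the low end were the ligand gene DLL4 at 0.401 ± 0.029, HEYL at 0.410 ± 0.046 and the proneural genes NEUROD1, NEUROG2, NEUROD4 and NEUROG1, at 0.471, 0.115, 0.0828 and 0.0107 CPM per kilobase. NOTCH2 stood at 15.3 ± 1.4 and the target HES5 at 4.66 ± 0.53 CPM per kilobase in siNC (SD, n = 6 each). The cultures thus held abundant RNA for NOTCH1, NOTCH3, DLL1, HES4 and HES6, and very little for the neurogenins and NEUROD factors.

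**Figure D1:**
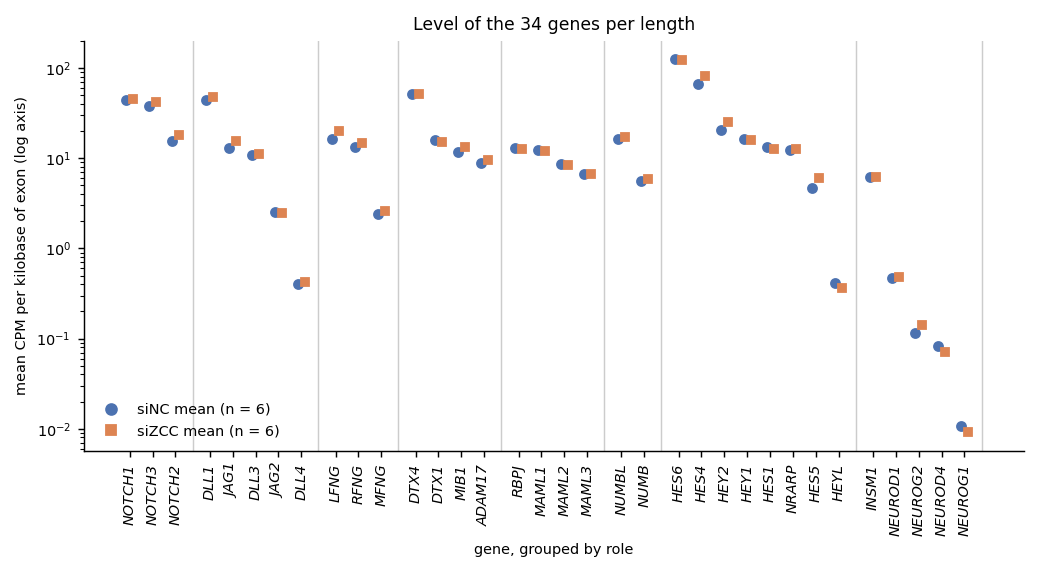
Mean level of each of the 34 genes in CPM per kilobase of exon (vertical log axis), grouped by role and ordered within a role by the siNC level; circles are siNC means and squares siZCC means of 6 libraries. HES6 is at the top at 125 and NEUROG1 at the bottom at 0.0107 CPM per kilobase in siNC, and the 2 symbols of a gene lie close together throughout.

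Of the 34 genes, 33 passed the filter on low counts and NEUROG1 did not. By edgeR's quasi-likelihood test, adjusted by Benjamini-Hochberg over all 24671 genes kept and called below 0.05, 9 were higher in siZCC and 0 lower. The genes called were NOTCH2, NOTCH3, JAG1, LFNG, RFNG, ADAM17, HES4, HES5 and HEY2. They make up 27.3% of the 33 tested, against 22.2% of all genes called in either direction, 11.4% called higher and 10.8% called lower, so the total share lies near that of the table. At an unadjusted p under 0.05, 11 members were higher and 0 lower, and DESeq2's Wald test and limma voom also called 9 higher and 0 lower. The median log2 fold change was 0.04 over the members and -0.0016 over all genes kept. Changes were small, from 9.38% to 27.8% above the control level, and 0 of the 33 genes passed a test against a minimum change of 1.2-fold (edgeR's glmTreat), which 1.41% of all genes passed. In NOTCH2, JAG1, LFNG and HEY2 every siZCC library lay above every siNC library, or 12.1% of the members tested, against 5.25% of all genes kept. In 0 of the members every siZCC library lay below every siNC library, against 4.5% of all genes.

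**Figure D2:**
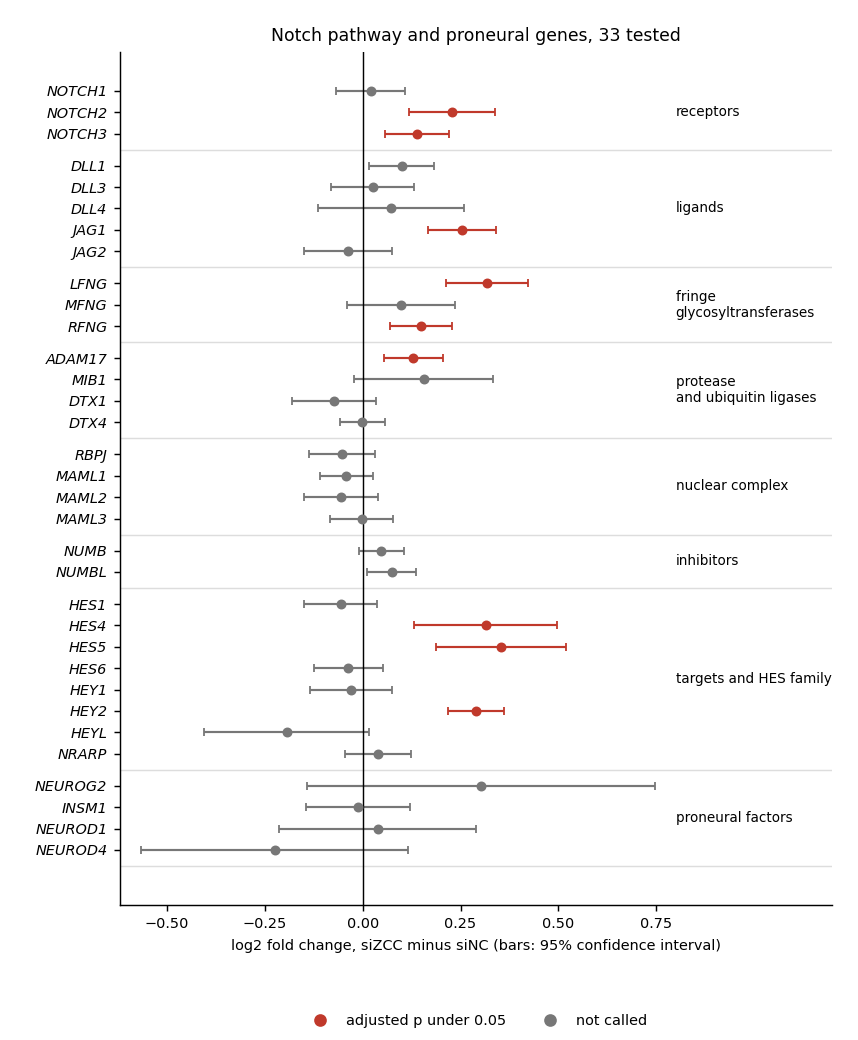
Log2 fold change of each of the 33 tested genes, siZCC minus siNC (horizontal axis), grouped by role, with bars for the 95% confidence interval; red points have an adjusted p under 0.05. All 9 red points lie to the right of 0, from 0.13 for ADAM17 to 0.35 for HES5, and the proneural factors have the widest intervals.

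Among the receptors, NOTCH2 and NOTCH3 rose and NOTCH1 did not pass the test. NOTCH2, a receptor of radial glia (GRCh38, chromosome 1, 119911553 to 120069626), had its lowest, median and highest library at 213, 264 and 282 CPM in siNC and at 288, 298 and 320 CPM in siZCC. The groups did not overlap, and the lowest siNC value was that of replicate 3. The log2 fold change was 0.23 (SE 0.0521, adjusted p 0.00481 in edgeR's quasi-likelihood test with n = 6 a group; exact permutation p = 0.00216, two-sided, the smallest that 6 against 6 can give). Without siNC replicate 3 it was 0.18, with an adjusted p of 0.0022. In the high-IL1B libraries alone it was 0.29 (adjusted p 0.0365) and in the others 0.16 (adjusted p 0.0707), with 3 libraries a group. NOTCH2 shares near-identical exons with the human-specific NOTCH2NL genes, of which NOTCH2NLA and NOTCH2NLC were counted at 1.05 and 3.58 CPM in siNC and 1.26 and 4.4 CPM in siZCC, and NOTCH2NLC was itself called higher (adjusted p 0.0481). How reads common to them were divided is not stated, so the NOTCH2 value is uncertain to that extent.

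NOTCH3, known for its part in vascular mural cells as well as in neural stem cells (chromosome 19, 15159038 to 15200981), ran from 331 over a median of 364 to 378 CPM in siNC and from 372 over 394 to 421 CPM in siZCC. Of the siZCC libraries, 5 lay above all siNC libraries and replicate 2 did not. The log2 fold change was 0.14 (SE 0.0386, adjusted p 0.0163). This call rested on its setting: without siZCC replicate 3 the adjusted p was 0.0525, and with a correction for GC content and length the log2 fold change was 0.07 (adjusted p 0.208). Within the IL1B classes it was 0.16 and 0.12 (high and low IL1B, adjusted p 0.0860 and 0.228). NOTCH1, the receptor best known for maintaining neural progenitors (chromosome 9, 136494433 to 136545786), ran from 408 over 462 to 494 CPM in siNC and from 442 over 469 to 493 CPM in siZCC, so the groups overlapped fully. Its log2 fold change was 0.02, with a 95% confidence interval from -0.07 to 0.11, and turned negative without siNC replicate 3 (-0.01) and with the GC and length correction (-0.05).

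**Figure D3:**
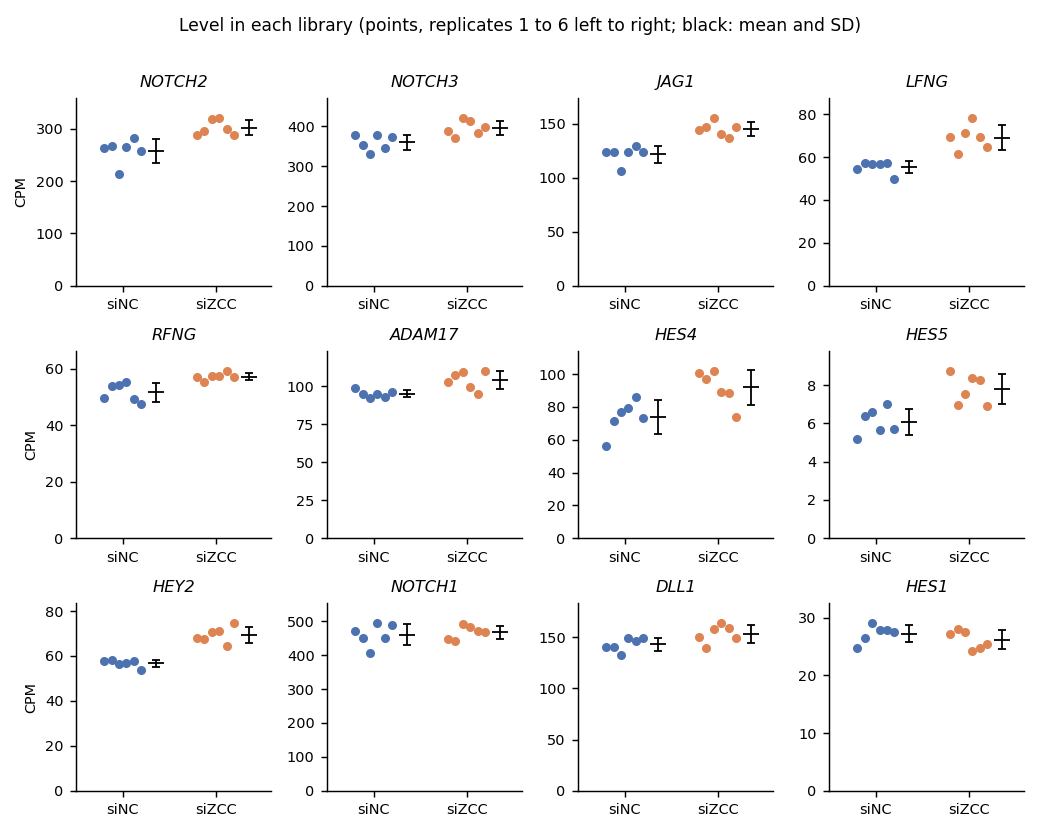
CPM in each library (points, on axes that start at 0) for the 9 genes with an adjusted p under 0.05 and for NOTCH1, DLL1 and HES1, with the mean and SD of 6 libraries in black. The siNC and siZCC points separate fully in NOTCH2, JAG1, LFNG and HEY2, overlap by single libraries in RFNG and ADAM17, and overlap widely in NOTCH1 and HES1.

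Of the ligands, JAG1 rose and the other 4 did not pass the test. JAG1, a ligand of radial glia and of many developing epithelia (chromosome 20, 10637684 to 10673999), had its lowest, median and highest library at 106, 123 and 129 CPM in siNC and at 137, 145 and 155 CPM in siZCC. The groups did not overlap, with siNC replicate 3 again the lowest library. The log2 fold change was 0.25 (SE 0.0412, adjusted p 3.53e-04 in edgeR's quasi-likelihood test), and it was 0.22 without siNC replicate 3. Within the libraries with high IL1B it was 0.25 (adjusted p 0.0255) and within the others also 0.25 (adjusted p 0.00532), each with 3 libraries a group.

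DLL1, the Delta ligand of newborn neurons and committed progenitors, ran from 132 over 143 to 149 CPM in siNC and from 139.5 over 154 to 164 CPM in siZCC. Of its siZCC libraries 4 lay above all siNC libraries, and its log2 fold change of 0.10 (SE 0.0394) had an adjusted p of 0.0791. The adjusted p was 0.0194 without siZCC replicate 2, the lowest library of its group. Without any other single library it ran from 0.0700 to 0.179. In the high-IL1B libraries alone the log2 fold change was 0.16 (adjusted p 0.0859) and in the others 0.04 (adjusted p 0.727). DLL3, an intracellular Delta protein that inhibits Notch within the same cell, stood at 28.7 ± 2.07 (siNC) and 29.2 ± 1.88 CPM (siZCC) (SD, n = 6 each; log2 fold change 0.03, 95% confidence interval -0.08 to 0.13). JAG2 stood at 16.2 ± 0.878 and 15.8 ± 1.33 CPM (-0.04, -0.15 to 0.08), and DLL4, the ligand of endothelial sprouting, at 1.91 ± 0.137 and 2.01 ± 0.268 CPM (0.07, -0.11 to 0.26).

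Fringe enzymes extend a sugar on the Notch receptor and thereby alter its response to Delta and Jagged ligands. LFNG (lunatic fringe, chromosome 7, 2512529 to 2529177) had its lowest, median and highest library at 49.9, 56.7 and 57.3 CPM in siNC and at 61.6, 69.3 and 78.1 CPM in siZCC. The groups did not overlap, and siZCC replicate 4 stood highest. The log2 fold change was 0.32 (SE 0.0495, adjusted p 2.53e-04 in edgeR's quasi-likelihood test), 0.40 within the high-IL1B libraries and 0.23 within the others. RFNG (radical fringe, chromosome 17, 82047902 to 82051831) ran from 47.4 over 51.7 to 55.5 CPM in siNC and from 55.5 over 57.2 to 59.3 CPM in siZCC, with only siNC replicate 4 and siZCC replicate 2 meeting. Its log2 fold change was 0.15 (SE 0.0377, adjusted p 0.00923), or 0.09 with the GC and length correction (adjusted p 0.0206). In the high-IL1B libraries it was 0.16 and in the low-IL1B libraries 0.14 (adjusted p 0.0919 and 0.133). Of its exons, 21.6% overlap those of GPS1 on the opposite strand, and the strand setting of the counting is not stated. MFNG (manic fringe) stood at 7.33 ± 0.236 CPM in siNC against 7.85 ± 0.893 CPM in siZCC (SD, n = 6 each), a log2 fold change of 0.10 (95% confidence interval -0.04 to 0.24) that did not pass.

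ADAM17, a protease that can cut the receptor at the cell surface (chromosome 2, 9488486 to 9556732), had its lowest, median and highest library at 92.1, 95.3 and 99.2 CPM in siNC and at 95.2, 105 and 110.2 CPM in siZCC. Of its siZCC libraries 5 lay above all siNC libraries, and replicate 5 did not. The log2 fold change was 0.13 (SE 0.0356, adjusted p 0.0149), with an adjusted p of 0.0505 without siZCC replicate 3. In the high-IL1B libraries alone it was 0.07 (adjusted p 0.370) and in the others 0.18 (adjusted p 0.0239). Exons of IAH1 on the opposite strand overlap 12.3% of its exons. ADAM10, the protease held to make the main ligand-dependent cut, stood at 98.2 ± 5.61 and 95.4 ± 4.34 CPM (SD, n = 6 each) and did not pass the test.

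The ubiquitin ligases gave no call. MIB1, which drives the endocytosis of ligands in the signalling cell, stood at 119 ± 20.3 (siNC) and 132 ± 7.53 CPM (siZCC) (SD, n = 6 each), with siNC libraries from 98.5 to 144 CPM. Its log2 fold change of 0.16 (95% confidence interval -0.02 to 0.33) had an adjusted p of 0.204, and of 0.0397 with the GC and length correction. DTX1 (69.6 ± 2.90 and 66.2 ± 6.10 CPM) had a log2 fold change of -0.07, which passed the test as lower with that correction (-0.12, adjusted p 0.0185). DTX4 was the steadiest of the members, at 315 ± 3.96 CPM in siNC against 314 ± 11.2 CPM in siZCC (SD, n = 6 each), with a log2 fold change between -0.06 and 0.06 at 95% confidence.

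In the nuclear complex 0 of 4 genes were called, also at an unadjusted p under 0.05, by DESeq2's Wald test and by limma voom. RBPJ, the DNA-binding partner, stood at 120.5 ± 6.55 (siNC) and 116 ± 5.95 CPM (siZCC), and MAML1 at 74.3 ± 3.20 and 72.2 ± 2.14 CPM (SD, n = 6 each). MAML2 stood at 61.7 ± 4.59 and 59.4 ± 2.39 CPM and MAML3 at 46.99 ± 2.29 and 46.9 ± 2.24 CPM. The 4 log2 fold changes lay between -0.05 and -0.0029, and their 95% confidence intervals reached no lower than -0.15, a bound set by MAML2. The inhibitor NUMB, an adaptor that removes Notch from the cell surface, stood at 53.95 ± 1.25 and 55.7 ± 1.51 CPM, and its relative NUMBL at 94.8 ± 2.85 and 99.8 ± 3.30 CPM (SD, n = 6 each). Neither passed the test (adjusted p 0.241 and 0.0821), and NUMBL had 4 siZCC libraries above all siNC libraries and an unadjusted p of 0.0223.

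Of the 8 HES and HEY family and target genes, HES4, HES5 and HEY2 rose and the others did not pass the test. HEY2, a repressor known from progenitors and from arteries (chromosome 6, 125747664 to 125761269), had its lowest, median and highest library at 53.9, 57.3 and 58.2 CPM in siNC and at 64.7, 69.3 and 74.5 CPM in siZCC. The groups did not overlap, and the siNC libraries lay close together. The log2 fold change was 0.29 (SE 0.0338), and the adjusted p of 1.90e-05 in edgeR's quasi-likelihood test was the smallest among the members. It was 0.27 within the high-IL1B libraries and 0.30 within the others, and passed the test in both.

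HES5, a target that follows Notch activity in neural progenitors (chromosome 1, 2528745 to 2530245), ran from 5.19 over 6.03 to 7.04 CPM in siNC and from 6.93 over 7.90 to 8.75 CPM in siZCC. Of its siZCC libraries 4 lay above all siNC libraries, while replicates 2 and 6 fell just under siNC replicate 5. Its log2 fold change of 0.35 (SE 0.0790, adjusted p 0.00401) was the largest of the 9 called, at 519 to 845 counts per library. It was 0.44 among high-IL1B libraries (adjusted p 0.00790) and 0.25 among the others (adjusted p 0.184). HES4, a human HES gene absent from the mouse (chromosome 1, 998962 to 1000172), ran from 56.0 over 75.2 to 86.3 CPM in siNC and from 73.9 over 93.0 to 102 CPM in siZCC, with a log2 fold change of 0.31 (SE 0.0868, adjusted p 0.0153). Its transcript has a GC content of 73.9%, the highest of the members, and with the GC and length correction the value was 0.18 (adjusted p 0.0491). In the IL1B classes HES4 gave 0.33 (high, adjusted p 0.00748) and 0.30 (low, adjusted p 0.256). Over all genes the median log2 fold change rose from -0.02 in transcripts below 40% GC to 0.06 in those above 65%.

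HES1, the HES gene that oscillates in progenitors (chromosome 3, 194136145 to 194138732), had its lowest, median and highest library at 24.8, 27.7 and 29 CPM in siNC and at 24.2, 26.4 and 28.1 CPM in siZCC. The groups overlapped, and the log2 fold change was -0.06 (95% confidence interval -0.15 to 0.04, adjusted p 0.407). HES6 stood at 255 ± 10.4 and 248 ± 17.3 CPM (SD, n = 6 each), with a log2 fold change of -0.04 that passed as lower with the GC and length correction (-0.12, adjusted p 0.0109). HEY1 stood at 52.5 ± 2.74 and 51.4 ± 4.13 CPM, NRARP, a feedback inhibitor of the Notch complex, at 22.1 ± 0.713 and 22.7 ± 1.31 CPM, and HEYL at 1.499 ± 0.170 and 1.32 ± 0.160 CPM (SD, n = 6 each). HEYL had the most negative log2 fold change of this group, -0.19, with a 95% confidence interval from -0.41 to 0.02.

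Of the proneural factors, 0 of the 4 tested were called, and 0 also at an unadjusted p under 0.05, by DESeq2's Wald test or by limma voom. INSM1, a zinc finger factor of intermediate progenitors and newborn neurons, was the most abundant, at 17.7 ± 1.48 CPM in siNC against 17.6 ± 1.55 CPM in siZCC (SD, n = 6 each; log2 fold change -0.01, 95% confidence interval -0.15 to 0.12). Its 6 siZCC libraries included a low one, replicate 6 at 14.4 CPM. NEUROD1, a factor of neuronal differentiation, stood at 1.56 ± 0.245 and 1.61 ± 0.263 CPM. NEUROG2, a cortical neurogenin, stood at 0.264 ± 0.0822 and 0.325 ± 0.0751 CPM, and NEUROD4 at 0.327 ± 0.0617 and 0.278 ± 0.0398 CPM (SD, n = 6 each). With 20 to 49 counts per library for NEUROG2 and 15 to 51 for NEUROD4, log2 fold changes between -0.14 and 0.75 and between -0.57 and 0.11 were within the 95% confidence intervals, so moderate changes were not detectable at this depth. NEUROG1 had 0 to 7 counts per library in siNC and 0 to 3 in siZCC and was not tested.

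Members of a family were then compared with each other within libraries, for 28 pairs, with the difference in log2 CPM as the measure and an exact two-sided permutation test; these tests were added after the values above were seen, and p-values were adjusted over the 28 pairs. In 13 pairs the difference shifted between siNC and siZCC at an adjusted p under 0.05. Each of these pairs holds a gene already called above, and genes recur across pairs, so the shifts restate those calls. They are no separate support, and the share of shifted pairs among other genes was not computed. HEY2 moved relative to HEY1 by 0.32 (adjusted p 0.0121), with HEY1 minus HEY2 at -0.11 ± 0.107 in siNC and -0.43 ± 0.102 in siZCC (SD, n = 6 each, exact permutation test). HES5 moved upward against HES6 by 0.40, and HES1 moved by -0.41 against HES5 and by -0.38 against HES4 (adjusted p 0.0121, 0.0152 and 0.0152), while HES4 against HES5 gave -0.04 (adjusted p 0.766). NOTCH1 moved by -0.21 against NOTCH2 and by -0.12 against NOTCH3 (adjusted p 0.0152 and 0.0121), and NOTCH2 against NOTCH3 by 0.09 (adjusted p 0.206). LFNG moved by 0.22 against MFNG and by 0.17 against RFNG (adjusted p 0.0121 and 0.0220). JAG1 minus JAG2 rose by 0.30 (adjusted p 0.0220) and DLL1 minus JAG1 moved by -0.16 (adjusted p 0.0466). For the 3 MAML pairs the shift was at most 0.05 in size, with adjusted p from 0.491 to 0.786.

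Across the members the libraries did not contribute evenly, and the counts below were not made over all genes kept. Among siNC libraries, replicate 3 was the lowest for 12 of the 33 genes and the highest for 1, and the genes for which it was lowest included all 3 receptors, DLL1, JAG1, RBPJ, MAML1, MAML2 and MAML3. Replicate 1 of siNC was lowest for 10 genes, among them HES1, HES4, HES5, HES6 and HEYL. Among siZCC libraries, replicate 4 was the highest for 13 genes and the lowest for 2, and replicate 2 the lowest for 10. Leaving out any of the 12 libraries kept all 9 calls except for siZCC replicate 3, without which 7 remained.

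**Figure D4:**
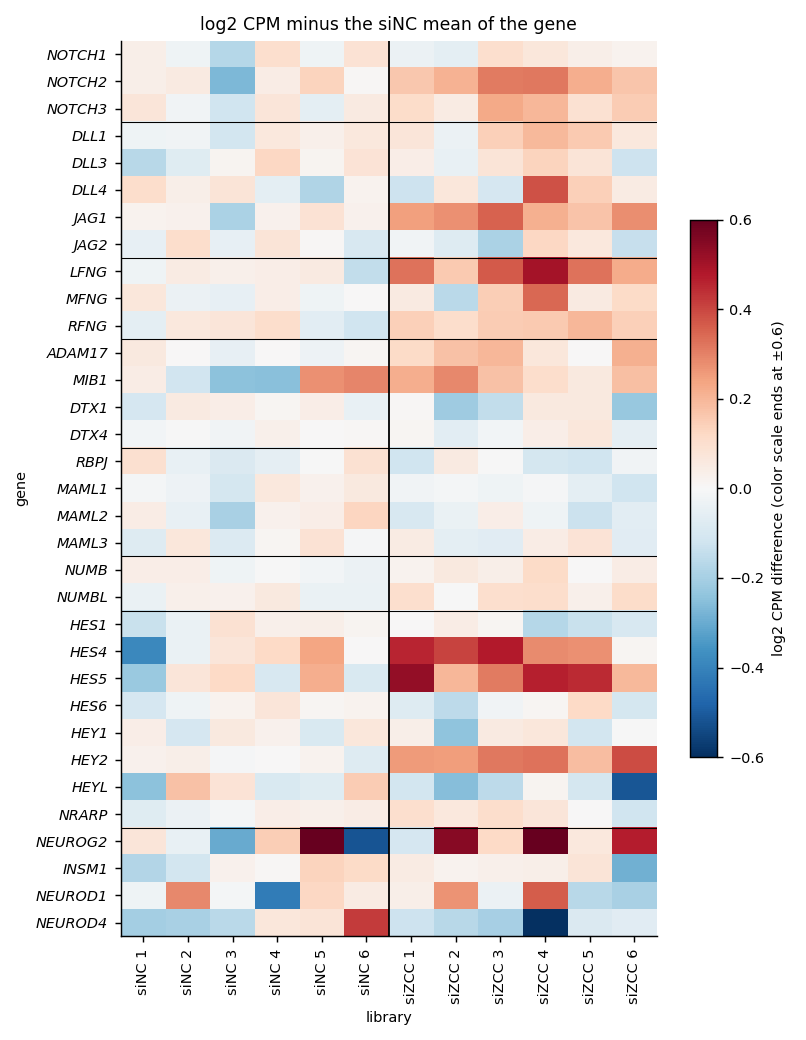
Log2 CPM of each of the 33 tested genes in each of the 12 libraries, minus the gene's siNC mean; rows are genes by role, columns are libraries, red is higher and blue lower, and the color scale ends at ±0.6. NOTCH2, JAG1, LFNG and HEY2 are red in all 6 siZCC columns, siNC replicate 3 is blue for the receptors and JAG1, and NEUROG2 and NEUROD4 vary from library to library.

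The rest of the pathway was described with lists of 73 further genes, of which 70 were tested. Of these 10 were higher and 11 lower, or 30% called, against 22.2% of all genes (11.4% higher and 10.8% lower). Of 10 genes of gamma-secretase and receptor maturation, 1 rose and 0 fell: APH1A, a scaffold subunit of gamma-secretase, went from 146 ± 4.66 to 167 ± 6.63 CPM (SD, n = 6 each; log2 fold change 0.19, adjusted p 4.10e-04 in edgeR's quasi-likelihood test). At an unadjusted p under 0.05, 2 genes of this list were lower, and DESeq2's Wald test called 1 lower and limma voom 0. Of 12 genes of trafficking and turnover, 3 rose (NEURL1B, MIB2 and FBXW7) and DTX3L fell. NEURL1B, a ligand-directed ubiquitin ligase, went from 58.5 ± 3.63 to 68.9 ± 3.41 CPM and DTX3L, a Deltex relative that works with PARP9, from 29.8 ± 2.47 to 22.8 ± 1.07 CPM (log2 fold changes 0.24 and -0.39, adjusted p 7.75e-04 and 4.97e-05). The 4 further receptors and ligands (NOTCH4, DLK1, DLK2 and DNER) gave 0 calls, with 1 gene at an unadjusted p under 0.05 and 1 call each by DESeq2's Wald test and limma voom.

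Of 17 co-repressors and co-activators of RBPJ, 3 rose and 6 fell, with a median log2 fold change of -0.04. In the high-IL1B libraries alone 2 rose and 1 fell, and in the others 2 rose and 2 fell. The histone acetyltransferase genes KAT2A and KAT2B rose, KAT2B from 59.2 ± 3.06 to 70.6 ± 2.96 CPM (0.25, adjusted p 1.69e-04), and the deacetylase gene HDAC2 fell from 191 ± 5.35 to 170.2 ± 5.64 CPM (-0.17, adjusted p 5.34e-04). Of the 7 ID and E protein genes, ID2 and TCF3 rose and 0 fell, a count of 0 that also held at an unadjusted p under 0.05, in DESeq2's Wald test and in limma voom. ID2, an inhibitor of proneural factors, went from 27.4 ± 2.65 to 32.6 ± 2.37 CPM (0.25, adjusted p 0.00650). Of 20 other neurogenic transcription factors tested, 4 fell. BHLHE22 fell from 3.92 ± 0.203 to 3.25 ± 0.278 CPM (-0.27, adjusted p 0.00766), and the other 3 were SOX11, EBF1 and EBF3. The values in this paragraph are SD with n = 6 each, from edgeR's quasi-likelihood test.

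Markers of cell types and states moved as well, and in these bulk samples fewer cells of a type and less RNA per cell cannot be told apart. Of 10 proliferation markers 9 fell and 0 rose (0 also at an unadjusted p under 0.05, in DESeq2's Wald test and in limma voom), and their summed level of 761 to 844 CPM in siNC and 609.8 to 710 CPM in siZCC did not overlap. CCNB1 went from 50.2 ± 2.04 to 33 ± 2.14 CPM (SD, n = 6 each). Of 13 neuron markers 6 fell, DCX with the smallest p (log2 fold change -0.23, adjusted p 0.00252 in edgeR), and SYT1 rose (0.12, adjusted p 0.0477), with sums of 3850 to 4309 CPM in siNC and 3494 to 3957 CPM in siZCC. Of 10 progenitor markers SOX2 (0.20, adjusted p 8.08e-05) and PAX6 rose and FABP7 (-0.31, adjusted p 1.87e-04) and HOPX fell, with sums of 6129 to 6520 and 6187 to 6727 CPM. Of 7 astrocyte markers SLC1A3 (log2 fold change 0.30) and ALDH1L1 rose and AQP4 (-0.21) fell, with sums of 1627 to 1851 and 1686 to 2007 CPM. Levels within a list differed widely in siNC. Among neuron markers MAP2 stood highest at 1027 CPM, while TUBB3 stood at 14.2 and RBFOX3 at 1.27 CPM. Among progenitor markers VIM stood highest at 3550 and PROM1 lowest at 28.6 CPM. The libraries labelled as neurons thus held some neuron markers alongside abundant progenitor and astrocyte markers, and the share of neurons was not measured.

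Cell types of blood vessels, in which NOTCH3, HEY2 and JAG1 are also active, were looked at in the same way. Of 7 endothelial markers 5 were tested and CLDN5 (log2 fold change -0.64) and TEK fell, with sums of 12.4 to 17.6 CPM in siNC and 8.63 to 10.7 CPM in siZCC. PECAM1, CDH5, VWF and ERG stood at 0.268, 0.0612, 0.0894 and 0.0151 CPM in siNC. TEK stood there at 9.46 and CLDN5 at 4.35 CPM, so the endothelial sums follow mainly TEK and CLDN5. Of 7 mural and mesenchymal markers PDGFRB rose from 83.5 ± 3.22 to 112 ± 10.2 CPM (SD, n = 6 each) and 4 fell (ACTA2, with a log2 fold change of -0.57, and RGS5, LUM and DCN), with sums of 359 to 639 and 286 to 454 CPM. Oligodendrocyte lineage markers gave 1 call, PDGFRA, which fell by 0.64 on the log2 scale, in sums of 147 to 184 and 149.9 to 184 CPM. Microglia markers gave 0 calls of 2 tested (0 also at an unadjusted p under 0.05, in DESeq2's Wald test and in limma voom), in sums of 1.16 to 2.26 and 1.24 to 2.03 CPM. Of 4 pluripotency markers 3 were tested, and DPPA4 (0.89, adjusted p 6.55e-07) and NANOG rose, in sums of 15.3 to 16.9 and 19.9 to 21.8 CPM. Mean levels went from 4.36 to 8.08 CPM for DPPA4 and from 11.0 to 12.2 CPM for NANOG. POU5F1, at 0.718 and 0.823 CPM, was not called, and ZFP42 had at most 1 count in a library. None of the 70 marker genes was at 0 in every library, but 15 averaged below 1 CPM over the 12 libraries and only 62 passed the filter on low counts. The part of cell makeup in the changes of the Notch genes was not tested.

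**Figure D5:**
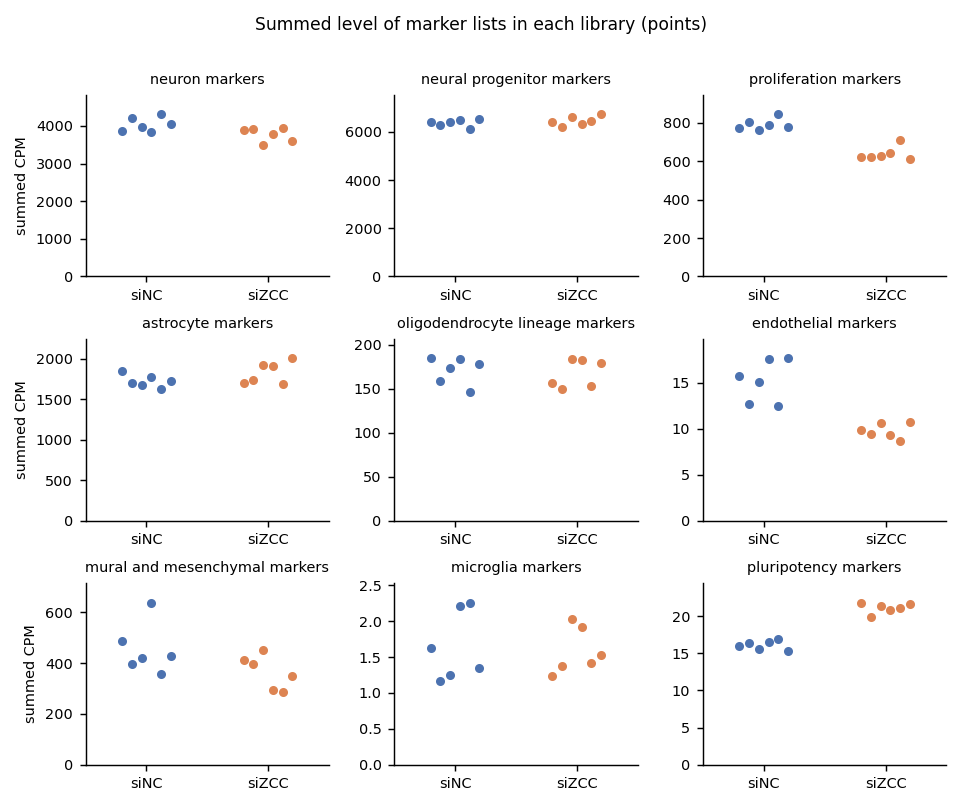
Summed CPM of each of 9 marker lists in each library (points; vertical axes start at 0), siNC against siZCC. Sums of proliferation and endothelial markers are lower in all siZCC libraries than in any siNC library, the endothelial sums being mostly TEK and CLDN5. Pluripotency sums are higher, and progenitor, astrocyte and oligodendrocyte lineage sums overlap.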

How the data were processed

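The values are raw read counts by gene symbol, as deposited by the authors, with a column for each library. The submitters' processing notes name bcl2fastq 2.17, STAR 2.7.6a, featureCounts 2.0.1 and the build GRCh38; settings, annotation and strand are not given in the sources used here. Libraries of total RNA were made with a directional kit, per the labels' protocols.

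Groups and replicate numbers came from the titles. In R 4.3.3 with edgeR 4.0.16, genes were kept by filterByExpr (24671 of 59653), scaled by TMM factors and compared over all 12 libraries with the quasi-likelihood test (glmQLFit, glmQLFTest). P-values were adjusted by Benjamini-Hochberg over all genes kept, and the threshold was 0.05. CPM are TMM-scaled, and log2 CPM use a prior count of 2. Exact permutation tests cover the 924 assignments of 12 libraries to 2 groups of 6. The biological coefficient of variation was 6.55%, which with the depth sets the precision.

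Positions, exon lengths and GC content came from GENCODE v29, in which 92.1% of symbols matched once. Alternatives were DESeq2 size factors, upper quartile scaling, no filter or a mean count of at least 50, DESeq2 1.42.0, limma 3.58.1 (voom), a replicate block, a minimum of 1.2-fold and leaving out each library. The division by IL1B (at 1 CPM), the family pairs and a fit with GC content and transcript length corrected for were chosen after seeing the data. Members and lists were chosen with earlier results of these data known. All members are named; of the other lists, the gene with the smallest p in each direction is given with values, except for 1 gene that is not reported here, and genes further named in counts of 5 or fewer, and NOTCH4, DLK1, DLK2, DNER, ADAM10, the NOTCH2NL genes, PECAM1, CDH5, VWF and ERG, were chosen after their values were seen.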

Additional observations from a re-analysis of the deposited data

Results flagged for a closer look

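For the 33 tested genes and the library totals, each group of 6 was searched for a library that stood apart, 68 searches in all. In 6 of them the gap between an extreme library and the next exceeded Dixon's 95% critical value, where chance gives about 1 in 20, or 3.4 here. In siNC, replicate 3 was low for NOTCH2 (7.74 in log2 CPM against 8.01 to 8.14) and for JAG1 (6.73 against 6.95 to 7.01), and replicate 6 was low for HEY2 (5.75 against 5.82 to 5.86). In siZCC, replicate 6 was low for INSM1 (3.85 against 4.16 to 4.22) and replicate 4 for NEUROD4 (-2.18 against -1.74 to -1.61), a gene at 15 to 30 counts per library in that group. Depth was lowest within siNC in replicate 4, at 90755953 counts, while its 5 companions held 109973707 to 120023356.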

How the results depend on the processing

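All 9 member calls kept a positive sign in every setting run. The same 9 passed under DESeq2 size factors, upper quartile scaling, no filter, a mean count of at least 50, limma voom, DESeq2's Wald test and with the IL1B division as a term. With GC content and length corrected, 8 of the 9 passed (not NOTCH3) among 11 calls. Of these calls 9 were higher and 2 lower (HES6 and DTX1), in a fit that called 27.3% of all genes. Of 790 member values across settings, 733 kept direction and call, 20 lost their call, 6 gained one and 31 changed sign, none of these among the 9 called. The count was 0 against a minimum change of 1.2-fold, 6 in the IL1B-high and 5 (4 higher, DTX1 lower) in the IL1B-low libraries, where 8.20% and 6.45% of all genes were called. It ran from 7 to 11 when 1 library was left out, 7 without siZCC replicate 3 and 11 without siZCC replicate 2, and was 9 otherwise. The fit without siZCC replicate 3 called 18.8% of all genes and that without siZCC replicate 2 called 22.8%. Members without overlap numbered 13 (11 higher, 2 lower) in the IL1B-high and 10 (6 higher, 4 lower) in the IL1B-low libraries. Of all genes, 15.4% were higher and 15.7% lower without overlap in the former, and 14.5% and 13.6% in the latter, since 3 against 3 separate more easily than 6 against 6. The 21 calls in the pathway lists became 0, 9 and 8 with the 1.2-fold minimum, the IL1B-high and the IL1B-low libraries. The fits within the IL1B classes hold fewer samples; the cause of the other shifts was not tested.

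Log2 fold changes that turned sign were all small. With GC and length corrected they were -0.0525 for NOTCH1, -0.0248 for DLL3 and -0.0299 for NRARP. In IL1B-high libraries they were 0.0652 for JAG2, 0.0210 for DTX1, 0.0428 for DTX4, 0.0603 for MAML3, 0.0106 for HES6, 0.0355 for INSM1 and -0.0278 for NEUROD1. In IL1B-low libraries they were -0.0154 for NOTCH1, -0.0251 for DLL3 and 0.00967 for HES1. With 1 library left out, values ran from -0.0124 to 0.0411 for NOTCH1, -0.0050 to 0.0499 for DLL3, -0.0150 to 0.0113 for DTX4, -0.0203 to 0.0144 for MAML3, -0.0510 to 0.00943 for HEY1, -0.0452 to 0.0340 for INSM1 and -0.0313 to 0.101 for NEUROD1. The cause was not tested. Depth limits NEUROG1, NEUROG2 and NEUROD4.

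Libraries that share a replicate number share only that number. Over genes, their deviations from the group means had correlations between -0.077 and 0.0179, and 0 of the 6 siZCC libraries correlated best with its own number. With the number as a block, the same 9 members were called, and 4 members were without overlap. The pathway lists again gave 21 calls, but with 7 in place of 9 among the RBPJ co-factors and 7 in place of 5 among the other neurogenic factors.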
